A study of Mus musculus with 47 samples.

Results

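Of the 45650 gene symbols counted in these libraries, 8 tetraspanins known for cell fusion, adhesion and vesicle traffic are described here: Cd9, Cd81, Cd63, Cd82, Cd151, Tspan3, Tspan4 and Tspan9. They were chosen by name, and all 8 passed the filter on low counts in every comparison. RNA was sequenced from C2C12, a mouse skeletal muscle myoblast line that fuses into myotubes when serum is withdrawn. The 47 libraries form 16 groups of 3 biological replicates each, except that the dox-treated myoblast-enriched fraction has 2. Whether replicates were separate cultures is not stated beyond the word biological, and if they were not, the p-values measure technical spread.

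C2C12 iMyoD1 cells keep their endogenous MyoD1, the transcription factor that commits cells to muscle, and carry a construct from which doxycycline (dox) induces MyoD1 fused to a Halo tag, through the TRE3G promoter. The line is a polyclonal pool made by transposon integration and drug selection. Cells were given dox or vehicle (no dox). At 0 h they were still proliferating in serum-rich medium after 24 h of treatment. At 24 h, 48 h and 120 h, treatment had started together with serum starvation and had lasted as long. At 120 h the whole culture was sequenced, and in other libraries a mesh of 40 µm separated cultures lifted by mild trypsin into a flow-through, the myoblast-enriched fraction, and a retained part, the myotube-enriched fraction. Both fractions are enriched and not pure. The iCdh23 and iMcam lines carry dox-inducible Cdh23, an atypical cadherin, or Mcam, an immunoglobulin-type adhesion molecule, and were sampled after 48 h of serum starvation with dox or vehicle. Every line carried a construct, so an effect of dox itself cannot be told apart from that of the construct it induces.

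Tetraspanins gather integrins, immunoglobulin-type partners and proteases into patches of the plasma membrane. CD9 on the egg is needed for fusion with sperm. In muscle, CD9 and CD81 act together with the immunoglobulin partners Igsf8 and Ptgfrn, and mouse myoblasts lacking both tetraspanins fuse to excess. CD82 is used as a surface marker of muscle stem cells and is also known as a restraint on metastasis. CD151 binds laminin-binding integrins, of which Itga7 is the main one in muscle. CD63 sits in late endosomes and exosomes and binds the protease inhibitor Timp1, and TSPAN4 is a component of migrasomes, the vesicles left behind on retraction fibers. TSPAN9 is known from platelets, and TSPAN3 is widely expressed.

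Library totals ran from 15066338 to 50950674 counts with a median of 22837926, and the lowest count of any of the 8 genes in any library was 391, for Tspan4. Levels are given as CPM, the counts scaled to a common library size, scaled by TMM, which sets library sizes so that most genes do not move on average. TMM factors were higher with dox in 7 of the 8 dox comparisons, so scaling by library totals alone adds between 0.098 and 0.331 to the median log2 change of all genes in those 7, and a call that this ends is marked where it occurs. The muscle lineage genes Myod1, Des and Cdh15 were expressed in every library, and the summed level of Ptprc, Pecam1, Cdh5, Adipoq and Epcam, markers of blood, endothelium, fat and epithelium, was at most 0.929 CPM. Myod1 itself was 171 to 181 CPM without dox and 178 to 197 CPM with dox at 0 h, and its mean went from 135 to 117 CPM at 24 h, from 388 to 306 CPM at 48 h and from 280.0 to 92.0 CPM in the whole culture at 120 h. The induced gene was no higher in 3 of these 4 comparisons, whether the construct's sequence was part of the reference is not given in the sources used here, and the dox groups are called by their labels. Cdh23 was 348 to 451 CPM in iCdh23 without dox and 426 to 568 CPM with it, ranges that overlap, against a mean of 9.36 CPM in iMyoD1 without dox at 48 h. Mean Mcam in iMcam went from 18.1 to 71.3 CPM. Replicates of the dox-treated myotube-enriched fraction correlated with each other at a mean r of 0.889 to 0.917 across genes, against 0.959 to 0.996 elsewhere. The 0 h and 24 h libraries lack the batch label that all others carry and come in a table of their own, so time and batch cannot be told apart between 24 h and 48 h.

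In GRCm38 the protein-coding genes lie as follows: Cd9 (ENSMUSG00000030342) at chr6:125460266-125494791 on the minus strand and Cd81 (ENSMUSG00000037706) at chr7:143052739-143067934 on the plus strand. For the others these are Cd63 (ENSMUSG00000025351) at chr10:128900989-128912822 on the plus strand and Cd82 (ENSMUSG00000027215) at chr2:93419111-93463140 on the minus strand. Next come Cd151 (ENSMUSG00000025510) at chr7:141467392-141471473 on the plus strand and Tspan4 (ENSMUSG00000025511) at chr7:141475240-141493427 on the plus strand, the latter just downstream of Cd151. Last are Tspan3 (ENSMUSG00000032324) at chr9:56131725-56165477 on the minus strand and Tspan9 (ENSMUSG00000030352) at chr6:127961396-128143594 on the minus strand.

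MyoD1 binds E-boxes, written CANNTG, and prefers the form CAGCTG. In the 250 bases before each RefSeq start of the 8 genes (16 windows, GRCm38.p6), CAGCTG was found for Cd9 and Cd81 only, the fusion pair. It reads the same on both strands and is one of the CANNTG forms. CAGCTG was in 13.0% of the 32851 windows of all genes, and at least 1 window held it for 14.7% of 27025 genes. CANNTG was found for 7 of the 8 genes, all but Cd63, and for 69.3% of all genes, so neither count sets these genes apart. Below are 100 bases upstream of both starts, 5′ to 3′ on the gene's strand with CAGCTG in capitals. The Cd9 stretch is chr6:125494771-125494870 on the minus strand, and its CAGCTG begins 25 bases before the RefSeq start. The Cd9 interval given above ends at 125494791, beyond this RefSeq start, so by that annotation this CAGCTG lies inside the gene. The Cd81 stretch is chr7:143052520-143052619 on the plus strand, and its CAGCTG begins 145 bases before the start.
Cd9: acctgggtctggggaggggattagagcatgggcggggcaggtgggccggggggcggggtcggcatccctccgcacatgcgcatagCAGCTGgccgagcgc
Cd81: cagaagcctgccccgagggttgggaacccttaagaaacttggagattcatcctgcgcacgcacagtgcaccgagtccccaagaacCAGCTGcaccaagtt
A match describes these letters and not a bound site.

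Cd63 was the most abundant of the 8 transcripts per length in all 16 groups. Its mean ran from 971 TPM, the length-scaled measure, in 24 h dox to 2527 TPM in 48 h dox. Cd9 and Cd81 came next at 0 h and 24 h, while Cd82 joined them from 48 h on. Tspan9 was the lowest at 0 h and 24 h, at 28.7 TPM in 24 h no dox, and Tspan4 was the lowest in the other 12 groups, down to 30.7 TPM in the dox-treated whole culture at 120 h.

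Cd82 varied most across groups and Cd151 least. The group means of Cd82 ran from 70.2 CPM in 24 h no dox to 701 CPM in the myoblast-enriched fraction without dox, a ratio of 9.98. The ratio of the highest to the lowest mean was 6.26 for Tspan4, 4.88 for Tspan9, 3.98 for Tspan3, 3.78 for Cd9, 3.15 for Cd63, 2.64 for Cd81 and 2.34 for Cd151. Cd9 peaked in the myoblast-enriched fraction without dox (401 CPM), Cd81 and Tspan3 in the myotube-enriched fraction without dox (476 and 273 CPM), Cd63 in 48 h dox (1580.1 CPM), Tspan9 in iCdh23 without dox (241 CPM), and Cd151 and Tspan4 in proliferating cells without dox (213 and 111 CPM). The lowest group was 24 h no dox for Cd81, Cd82, Tspan3 and Tspan9, 24 h dox for Cd9, 0 h dox for Cd63, and the dox-treated whole culture at 120 h for Cd151 and Tspan4. When the 16 groups were ordered by mean, the library ranges of neighbours overlapped in 9 of 15 neighbouring pairs for Cd82, in 11 for Cd63, Tspan3 and Tspan9, in 12 for Cd9, Cd81 and Cd151 and in 13 for Tspan4, so the order is fixed only in its coarse steps.

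**Figure D1:**
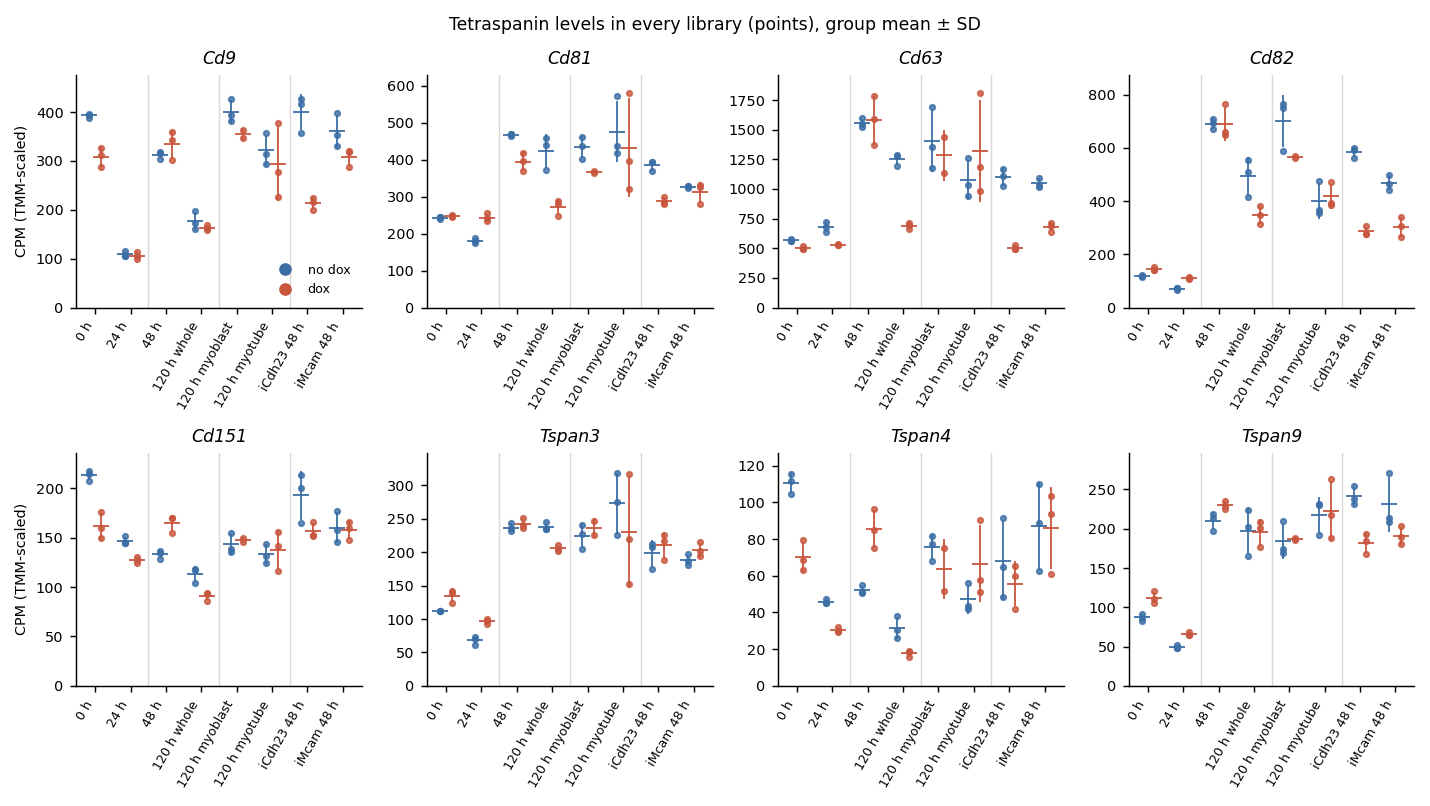
Level of each of the 8 tetraspanins in CPM with TMM factors (y axis, from 0) in each of the 47 libraries (points), by line, time and fraction (x axis) and by dox (colour), with the group mean (dash) and SD (line). Cd82 steps up from at most 153 CPM at 0 h and 24 h to at least 263 CPM in every other library, whereas Cd151 and Tspan4 are highest at 0 h without dox.

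The first comparison in time asked how each tetraspanin moved as untreated cells entered differentiation. Between 0 h and 24 h without dox all 8 passed the test (edgeR quasi-likelihood, adjusted p under 0.05 over all genes), 7 of them lower and Cd63 higher, where 74.3% of the 13632 genes tested passed. Their median log2 change was -0.71, against 0.01 for all genes. Cd9 fell most. It was 389, 395 and 396 CPM at 0 h and 106, 105 and 117 CPM at 24 h, with no overlap and a change of -1.81 ± 0.06 (SE) in log2, 3.51-fold lower (edgeR adjusted p = 6.38e-12). Cd81, its partner in fusion control, fell far less, from 240.0 to 246 CPM down to 174 to 187 CPM (log2 change -0.40). Tspan4, the migrasome protein, was next after Cd9, going from 112, 105 and 115 CPM to 47.4, 45.1 and 45.0 CPM, 2.35-fold lower. Cd63 moved the other way, from 561 to 575 CPM up to 636 to 718 CPM, a log2 change of 0.29 that missed the threshold when all groups shared 1 fit. Cd82, Cd151, Tspan3 and Tspan9 fell by 0.50 to 0.78 on the log2 scale. The summed level of 5 proliferation genes (Mki67, Top2a, Cdk1, Ccnb1 and Mcm2) fell from at least 2173 to at most 674 CPM. Their part in the result was not tested.

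At 48 h the levels were higher again for most members, with the reservation on batch given above. Without dox, 7 of the 8 were higher and Cd151 lower than at 24 h, where 76.8% of genes passed, and 6 of the 8 changed over 2-fold, against 30.4% of genes. Cd82 rose most. It went from 66.6, 72.2 and 71.7 CPM at 24 h to 695, 670.0 and 709 CPM at 48 h, a gap far wider than the spread within either group, and 9.88-fold (log2 change 3.31 ± 0.06, edgeR adjusted p = 3.81e-14). Tspan9 rose 4.26-fold, Tspan3 3.47-fold, Cd9 2.87-fold, Cd81 2.60-fold and Cd63 2.30-fold. Cd151 and Tspan4 stood apart from these 6 with log2 changes of only -0.14 and 0.19, and the call for Tspan4 was lost when libraries were scaled by their totals and with all groups in 1 fit. The call for Cd151 was lost under DESeq2, RLE scaling, the replicate block, length-scaled counts, protein-coding transcripts alone and all groups in 1 fit. The median of the 8 was 1.45 in log2, against -0.02 for all genes. Over the same step the summed level of 8 myotube genes (Myog, Mymk, Mymx, Ckm, Acta1, Myh3, Tnnt3 and Ttn) went from at most 13.6 CPM to at least 12821 CPM, and its part in the result was not tested. In bulk RNA, fewer cells of a type and less RNA per cell cannot be told apart.

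From 48 h to 120 h in the whole culture without dox, 5 of 8 fell and none rose, where 67.1% of 13785 genes passed and 34.1% fell. Cd9 fell again, from 317, 305 and 317 CPM to 198, 173 and 161 CPM, a log2 change of -0.80 ± 0.09 (edgeR adjusted p = 5.45e-05). Tspan4 went from 55.0, 50.9 and 50.3 CPM to 38.1, 30.6 and 26.2 CPM (log2 change -0.70). Cd82, Cd63 and Cd151 changed by -0.47, -0.29 and -0.22. Cd81, Tspan3 and Tspan9 did not pass, with intervals of the log2 change of -0.31 to 0.06, -0.11 to 0.17 and -0.29 to 0.14. Intervals here and below are the log2 change ± 1.96 SE, a normal approximation that is narrower than the test's own. Cd63 and Cd151 had the largest adjusted p of the 5, the call for Cd151 was lost under DESeq2, the replicate block, protein-coding transcripts alone and no low-count filter, and only 3 of the 8 passed without replicate 3 of 48 h no dox. Over this step the proliferation genes fell from at least 953 to at most 246 CPM summed, and their part in the result was not tested.

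**Figure D2:**
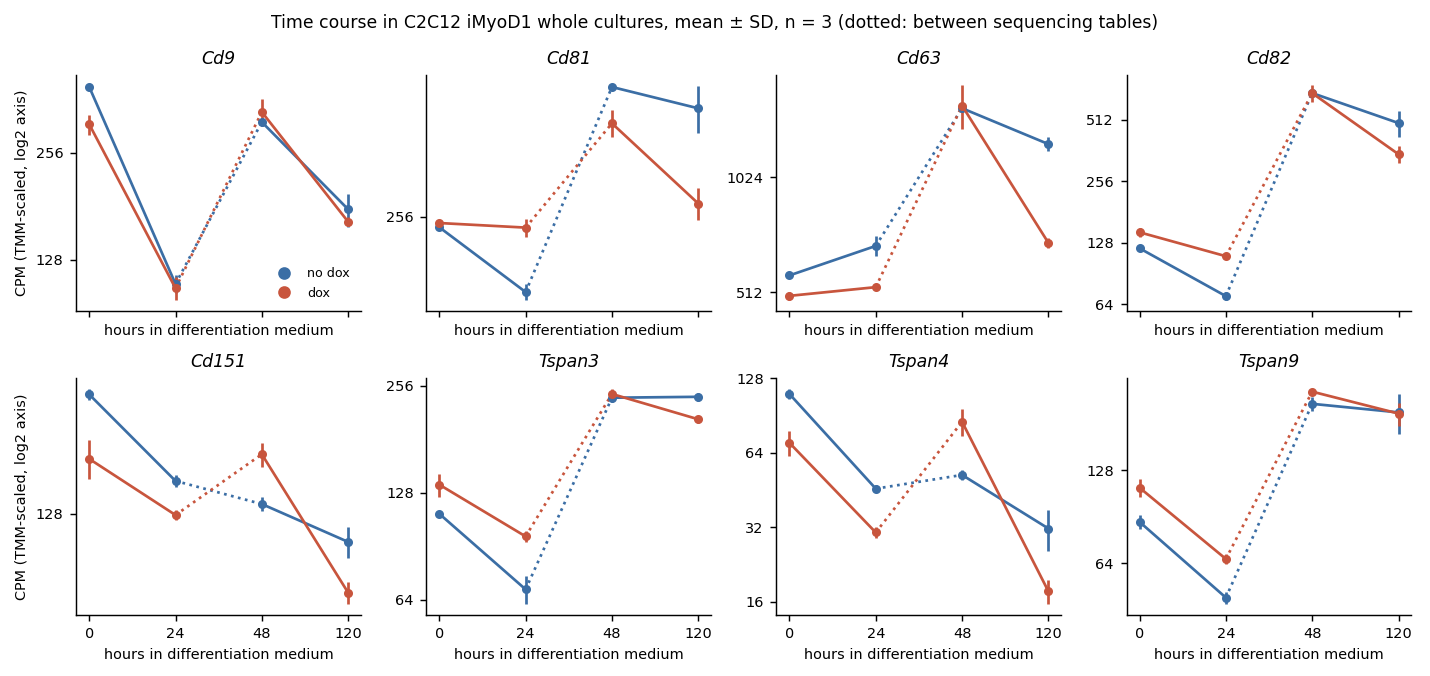
Mean CPM with TMM factors (y axis, log2 scale) ± SD of 3 libraries against hours in differentiation medium (x axis) in whole cultures of C2C12 iMyoD1 without dox and with dox. Dotted lines join libraries of separate tables. Cd9, Cd82, Tspan3, Tspan4 and Tspan9 dip at 24 h in both series, and at 120 h the dox series falls furthest below no dox for Cd63 and Tspan4.

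The dox-treated cultures went through the same times. They were compared with each other and not with the untreated ones, and each 24 h and 48 h group serves in more than 1 step, so successive changes are tied. From 0 h to 24 h 6 of 8 fell (68.0% of genes passed and 34.0% fell), with Cd9 at -1.53 and Tspan4 at -1.20 in log2. Cd81 stayed within -0.13 to 0.07 and Cd63 within -0.02 to 0.18 (± 1.96 SE). From 24 h to 48 h all 8 rose (72.4% of genes passed and 36.9% rose), led again by Cd82, which went from 106, 111 and 113 CPM to 649, 659 and 765 CPM, 6.18-fold. Tspan4 rose 2.76-fold here. From 48 h to 120 h all 8 fell (73.5% of genes passed and 38.6% fell), with a median of -0.91 in log2 against -0.04 for all genes. Tspan4 fell most, from 75.3, 96.1 and 84.6 CPM to 15.5, 19.1 and 18.4 CPM, 4.80-fold (log2 change -2.26 ± 0.12, edgeR adjusted p = 3.18e-09). The split of its count between transcripts also differed here, with a mean of 68.8% on the transcript Tspan4-201 at 48 h and 3.91% at 120 h with dox, and its part in the fall was not tested. Cd63 fell 2.27-fold and Cd9 2.03-fold over the same interval, while Tspan3 and Tspan9 each changed by -0.23 in log2, calls lost with all groups in 1 fit.

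The next question was how these genes differed between dox and no dox in iMyoD1 cells at each time. In proliferating cells (0 h), 7 of 8 passed between dox and no dox, 3 higher and 4 lower, where 37.8% of 13550 genes passed, and none changed over 2-fold, against 4.27% of genes. The ranges of 7 of 8 did not overlap, and this was so for 49.3% of all genes. Tspan4 moved most. It was 112, 105 and 115 CPM without dox and 62.8, 68.5 and 79.2 CPM with dox, a log2 change of -0.65 ± 0.08 (edgeR adjusted p = 2.16e-05). Cd151, which lies next to Tspan4 on chromosome 7, changed by -0.39 and Cd9 by -0.34. Tspan9, Tspan3 and Cd82 were higher by 0.38, 0.28 and 0.27. Cd63 changed by -0.17, a call lost under library totals. Cd81 had an interval of -0.06 to 0.13 and passed as higher under library totals (log2 change 0.14, edgeR adjusted p = 0.0258). With all groups in 1 fit, only Cd151 of the 7 passed, where 4.95% of 16749 genes did, so the loss was general.

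At 24 h dox again left 7 of 8 called, 4 higher and 3 lower, where 62.8% of 14078 genes passed. Cd82, the stem cell marker, rose most, from 66.6, 72.2 and 71.7 CPM to 106, 111 and 113 CPM (log2 change 0.62 ± 0.06, edgeR adjusted p = 1.46e-06). Tspan3, Cd81 and Tspan9 were higher by 0.47, 0.41 and 0.39. Cd81 was 174, 179 and 187 CPM without dox and 234, 241 and 254 CPM with dox, and so all treated libraries lay above all untreated ones. Tspan4 changed by -0.61, Cd63 by -0.38 and Cd151 by -0.24, but under library totals the Cd63 call was lost and Cd151 changed sign to 0.03. Cd9 was 105 to 117 CPM without dox and 98.4 to 114 CPM with dox, with an interval of -0.20 to 0.06, and passed as higher under library totals (log2 change 0.20, edgeR adjusted p = 0.0157). Across all genes, 4384 were higher and 4464 lower under TMM, and 7116 and 2327 under library totals. The dox effect at 24 h minus that at 0 h was 0.32 ± 0.07 in log2 for Cd81, 0.31 ± 0.08 for Cd82 and -0.26 ± 0.08 for Cd63, and these 3 of 8 passed, where 34.1% of genes differed between both times. Under library totals the differences for Cd81 and Cd82 still passed and that for Cd63 did not.

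At 48 h 3 of 8 passed between dox and no dox, where 56.6% of 13871 genes did. The dox effect at 48 h was not tested against that at 0 h or 24 h. Tspan4 was higher with dox at this time. It was 55.0, 50.9 and 50.3 CPM without dox and 75.3, 96.1 and 84.6 CPM with dox, a log2 change of 0.70 ± 0.09 (edgeR adjusted p = 6e-05). Cd151 was also higher, from 129 to 136 CPM up to 155 to 170.0 CPM (log2 change 0.29). Cd81 was lower, from 463 to 470.4 CPM down to 369 to 419 CPM (log2 change -0.26), a call that was lost under library totals and with all groups in 1 fit. For Cd9, Cd63, Cd82 and Tspan3 the intervals of the log2 change were -0.06 to 0.22, -0.18 to 0.20, -0.18 to 0.14 and -0.09 to 0.13. Tspan9 was higher in every dox library (log2 change 0.12, edgeR adjusted p = 0.131). Under library totals Cd9, Tspan3 and Tspan9 passed as higher, so 5 of the 8 were called on that scale, where 38.4% of genes were higher and 21.2% lower. Between dox and no dox, all 8 of the myotube genes above and all 5 proliferation genes (Mki67, Top2a, Cdk1, Ccnb1 and Mcm2) fell at this time, the former from at least 12821 to at most 5351 CPM summed and the latter from at least 953 to at most 332 CPM. Their part in the result was not tested.

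In the whole culture at 120 h, 6 of 8 were lower with dox and none higher, where 45.2% of 13627 genes passed and 23.7% were lower. Their median log2 change was -0.42, against 0.00 for all genes. Cd63 had the smallest p, going from 1192, 1282 and 1284 CPM to 666, 694 and 710.1 CPM (log2 change -0.87 ± 0.08, edgeR adjusted p = 3.23e-05). Cd81 went from 460, 439 and 371 CPM to 249, 288 and 279 CPM, a change of -0.65, so that all untreated libraries lay above all treated ones. Tspan4 went from 38.1, 30.6 and 26.2 CPM to 15.5, 19.1 and 18.4 CPM, a change of -0.86. These 3 also passed under library totals, whereas the calls for Cd82 (-0.52), Cd151 (-0.33) and Tspan3 (-0.22) did not. The call for Tspan3 was also lost under DESeq2, the replicate block, no low-count filter, protein-coding transcripts alone and all groups in 1 fit, and that for Cd151 under the block. Cd9 and Tspan9 had intervals of -0.31 to 0.05 and -0.26 to 0.21. Here proliferation genes moved opposite to 48 h, from at most 246 to at least 388 CPM summed. The myotube genes summed to at least 14947 CPM without dox and at most 11737 CPM with it, and Myog alone was 1916 to 2808 CPM against 377 to 404 CPM. The part of either set in the result was not tested.

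The dox effect at 120 h was lower than at 48 h for 5 members, where 34.1% of genes differed. The difference in log2 was -1.55 ± 0.18 for Tspan4 (edgeR adjusted p = 2.49e-05), whose split between transcripts differed as well between these times, and -0.88 for Cd63, -0.62 for Cd151, -0.50 for Cd82 and -0.39 for Cd81. Under library totals 4 of the 5 still passed, and the call for Cd81 was lost (-0.33, edgeR adjusted p = 0.0635). For Tspan4 and Cd151 dox lowered the level at 0 h and 24 h, raised it at 48 h and lowered it at 120 h, although under library totals Cd151 changed sign at 24 h and its call at 120 h was lost. The count of 5 members fell to 3 without replicate 2 of 48 h no dox, replicate 3 of 48 h dox, replicate 2 of 120 h no dox or replicate 1 of 120 h dox.

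**Figure D3:**
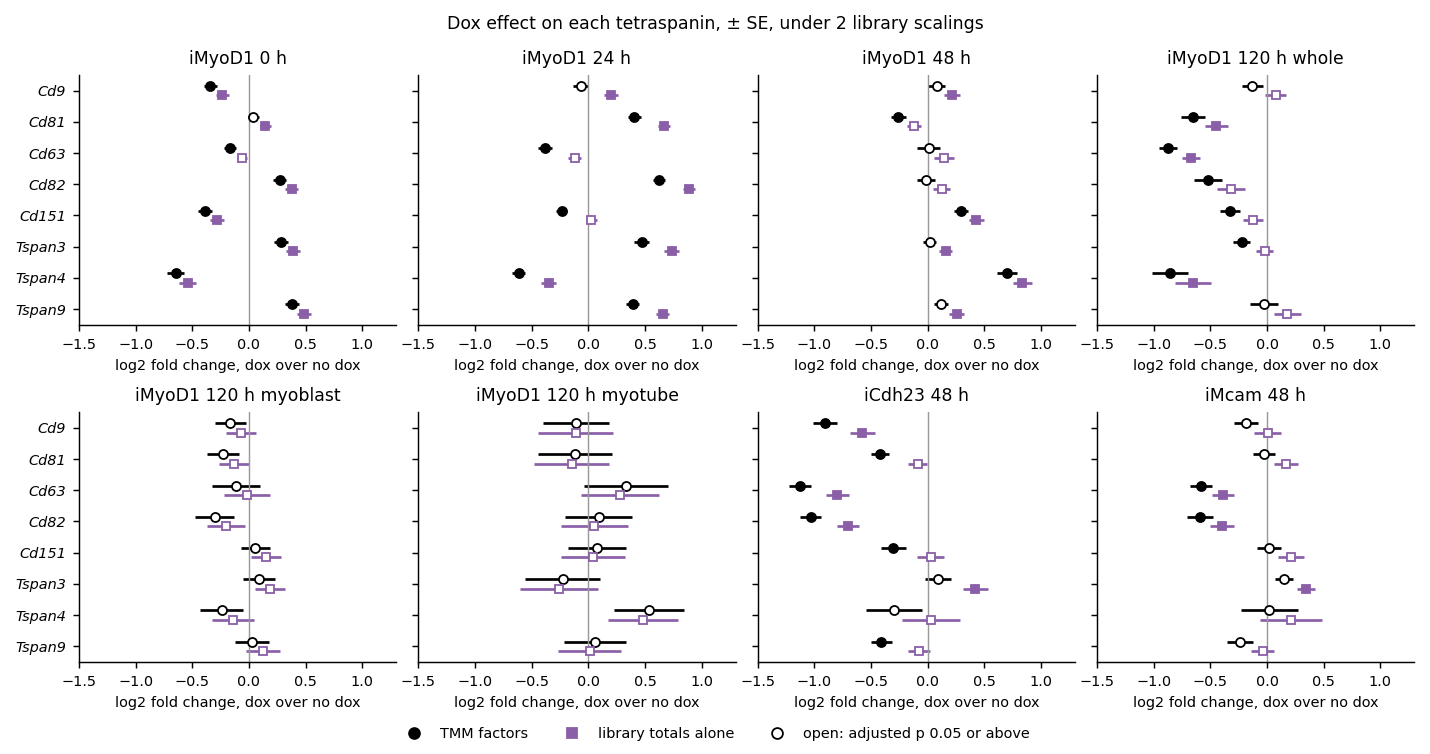
Log2 fold change of dox over no dox ± SE (x axis) for each tetraspanin (y axis) in the 8 dox comparisons, with TMM factors (circles) and with library totals alone (squares), filled where the adjusted p was under 0.05. Squares lie to the right of circles in every panel but the myotube-enriched fraction, and Tspan4 lies left of 0 at 0 h and 24 h, right of it at 48 h and left again in the whole culture at 120 h.

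The fractions asked whether either cell population carried these changes. In the myoblast-enriched fraction none of the 8 passed between dox and no dox (edgeR quasi-likelihood), where 4.34% of 14249 genes did. That share rested on single libraries: no gene passed without replicate 3 of no dox or replicate 2 of dox, and 6 higher and 8 lower without replicate 3 of dox, whereas 1980 were higher and 2071 lower with a replicate block. None of the 8 had an unadjusted p under 0.05 either, DESeq2 called none of them, and 3 of 8 did not overlap between groups, against 40.7% of genes. The largest change was that of Cd82, from 749, 764 and 589 CPM to 568 and 561 CPM (log2 change -0.30, interval -0.64 to 0.03). In the myotube-enriched fraction no gene at all passed (0.0% of 14113 by edgeR, 79 genes at an unadjusted p under 0.05), and none of the 8 was among those 79. Cd63 there was 1034, 942 and 1257 CPM without dox and 1806, 1181 and 980 CPM with dox, and Tspan4 was 56.2, 43.4 and 41.7 CPM against 90.3, 51.2 and 57.8 CPM. Replicate 1 with dox was the highest for both and the lowest for Cd9, Cd81 and Tspan3. Without it the log2 changes of Cd63 and Tspan4 were 0.0074 and 0.21, in place of 0.33 and 0.53, and again none of the 8 passed. SEs in this fraction were 0.25 to 0.37 in log2. The interval for Cd63 was -0.40 to 1.06 and that for Tspan4 -0.07 to 1.14, where the changes in the whole culture were -0.87 and -0.86. In the myoblast-enriched fraction these intervals were -0.53 to 0.30 and -0.61 to 0.13. The difference between the whole culture and either fraction was not tested. The dox effect did not pass as different between fractions for any of the 8, where 0.0% of genes did by edgeR and 217 genes, none of the 8 among them, had an unadjusted p under 0.05.

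Without dox, the myotube-enriched fraction was set against the myoblast-enriched one. None of the 8 passed in edgeR, where 0.592% of 14023 genes did, and 2 of them had an unadjusted p under 0.05. Those were Cd82, at 477, 356 and 368 CPM against 749, 764 and 589 CPM (log2 change -0.79 ± 0.20, edgeR adjusted p = 0.12), and Tspan4, at 56.2, 43.4 and 41.7 CPM against 77.4, 81.6 and 67.9 CPM (-0.66 ± 0.16, edgeR adjusted p = 0.116). For both genes, all myotube-enriched libraries lay below all myoblast-enriched ones. Same-numbered fractions varied together, and with the replicate number as a block both genes passed (edgeR adjusted p = 0.049 and 0.048), where 4.82% of all genes did. DESeq2 called them as well, with 5.15% of 14822 genes. By edgeR no gene passed without replicate 3 of the myotube-enriched or replicate 1 or 2 of the myoblast-enriched fraction. With dox no gene passed between fractions (0.0% of 14291), with 182 genes and none of the 8 at an unadjusted p under 0.05, and Cd82 was again lower in each myotube-enriched library, at 473, 394 and 385 CPM against 568 and 561 CPM. The myotube genes summed to between 13801 and 21449 CPM in the retained part and between 6150 and 9386 CPM in the flow-through without dox. Unfused differentiating cells express these genes too, and their part in these levels was not tested.

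The whole culture did not lie between its fractions for several of these genes. Without dox, Cd9 was 161 to 198 CPM in the whole culture and 293 to 427 CPM over all fraction libraries, Cd151 was 105 to 118 CPM against 124 to 155 CPM, and Tspan4 was 26.2 to 38.1 CPM against 41.7 to 81.6 CPM. With dox, 6 of the 8 lay below every fraction library, namely these 3 with Cd81, Cd63 and Cd82. The Tspan4 count was also split differently between transcripts. Without dox, Tspan4-201 took a mean of 6.32% in the whole culture and 80.1% in each fraction. Whole cultures and fractions come in separate tables, and these differences were not tested.

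**Figure D4:**
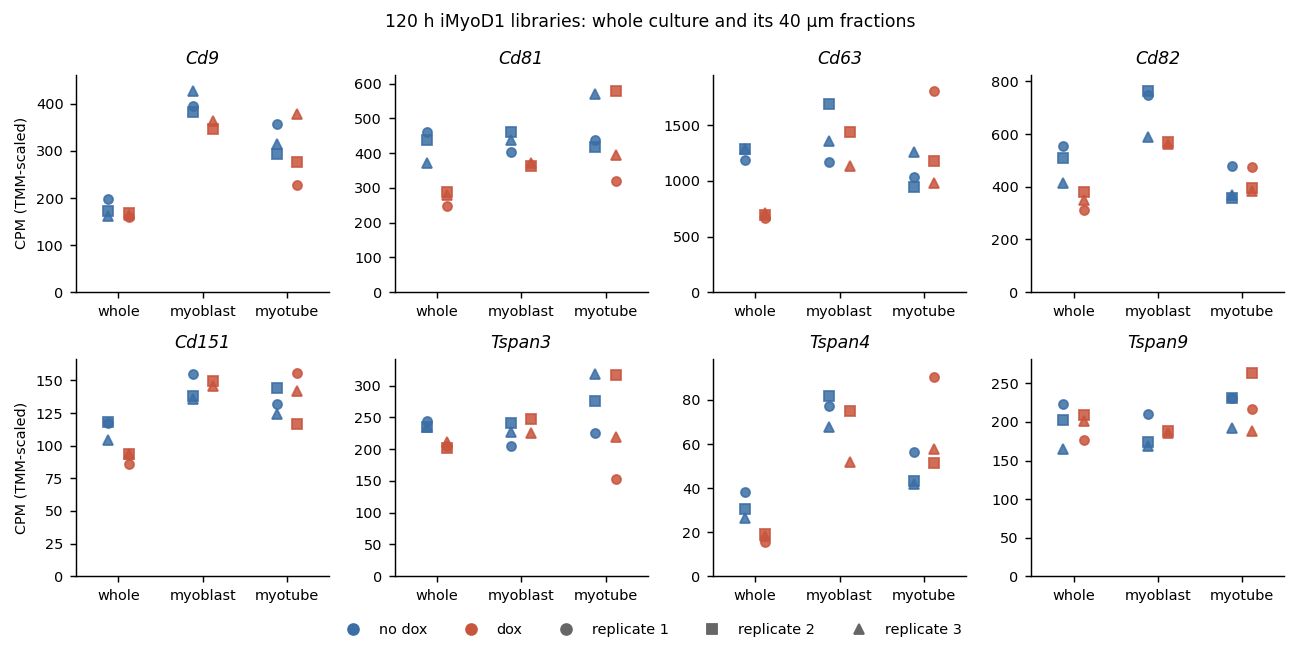
CPM with TMM factors (y axis, from 0) of each tetraspanin in the 17 libraries of C2C12 iMyoD1 at 120 h, for the whole culture and both fractions (x axis), by dox (colour) and replicate number (symbol). Whole cultures lie below both fractions for Cd9, Cd151 and Tspan4, and the dox-treated myotube-enriched libraries spread widest for Cd81, Cd63 and Tspan3.

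In iCdh23 and iMcam the question was what dox did at 48 h in lines carrying an inducible adhesion gene. In iCdh23 6 of 8 were lower with dox, where 63.8% of 14227 genes passed and 32.4% were lower, and Cd63 and Cd82 changed over 2-fold, against 30.0% of genes. Under library totals both still passed as lower, by -0.80 and -0.70 in log2, but neither changed over 2-fold, where 34.1% of genes did. Cd63 went from 1171, 1113 and 1022 CPM to 496, 527 and 494 CPM, 2.18-fold lower (log2 change -1.13 ± 0.09, edgeR adjusted p = 4.54e-05). Cd82 went from 590.3, 600.5 and 563 CPM to 277, 275 and 305 CPM, 2.05-fold lower. Cd9 went from 427, 416 and 358 CPM to 200.3, 216 and 225 CPM, 1.87-fold lower, and in all 3 genes the groups lay far apart. Cd81, Tspan9 and Cd151 changed by -0.42, -0.41 and -0.30, but these calls did not hold under library totals, where Cd151 changed sign to 0.03. The call for Cd151 was also lost with length-scaled counts, protein-coding transcripts alone and no low-count filter. Across all genes 4460 were higher and 4611 lower under TMM, and 6736 and 3146 under library totals. Tspan3 had an interval of -0.13 to 0.31 and passed as higher under library totals (0.42). Tspan4, with replicates at 91.4, 64.8 and 48.5 CPM without dox, had an interval of -0.78 to 0.19. Myog, the late myogenic factor, was 813 to 1486 CPM without dox and 3.25 to 15.1 CPM with dox, and the proliferation genes summed to at least 643 CPM without dox and at most 48.6 CPM with it. Their part in the result was not tested.

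In iMcam 2 of 8 passed, both lower, where 49.0% of 13731 genes passed and 24.8% were lower. They were Cd63, from 1015, 1030.5 and 1096 CPM to 714, 689 and 640 CPM (log2 change -0.58 ± 0.09, edgeR adjusted p = 0.00222), and Cd82, from 443, 499 and 465 CPM to 263, 307 and 340 CPM (-0.59 ± 0.11, edgeR adjusted p = 0.00447). In both genes every dox library lay below every untreated one, and both calls held under library totals. Same-numbered iMcam libraries varied together, and with the replicate block Tspan9 passed too (log2 change -0.23, edgeR adjusted p = 0.038). Cd9 and Tspan3 had intervals of -0.39 to 0.02 and -0.01 to 0.31, and Tspan3 passed as higher under library totals (0.34). Cd81, Cd151 and Tspan4 had intervals of -0.22 to 0.16, -0.18 to 0.22 and -0.47 to 0.51. Myog was 615 to 1195 CPM without dox and 68.8 to 161 CPM with it. The myotube genes summed to at least 3967 CPM without dox and at most 1649 CPM with it, and the proliferation genes to at least 601 and at most 128 CPM. Their part in the result was not tested.

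The dox effects of these lines were then compared with each other. The effect in iMcam minus that in iCdh23 was 0.70 ± 0.14 in log2 for Cd9 and 0.52 ± 0.12 for Cd63 (edgeR adjusted p = 0.00939 and 0.0196), where 10.6% of genes differed. Cd9 had not passed in iMcam itself. Under library totals the difference remained past the threshold for Cd9 and not for Cd63. Without dox the lines differed in 0.409% of 13700 genes and in none of the 8 by edgeR, although 2 of the 8 had an unadjusted p under 0.05, and DESeq2 called none. Against iMyoD1 at 48 h, the effect in iCdh23 was lower for 6 members (35.7% of genes differed), by -1.12 for Cd63, -0.9999 for Cd82, -0.98 for Tspan4, -0.97 for Cd9, -0.58 for Cd151 and -0.51 for Tspan9, and all 6 passed under library totals. The effect in iMcam was lower than in iMyoD1 for Cd63 (-0.60) and Cd82 (-0.58), where 6.41% of genes differed. Both comparisons use the same 48 h iMyoD1 libraries, which come in another table than iCdh23 and iMcam. The count for iMcam against iMyoD1 fell to 0 without replicate 2 of iMcam dox, any replicate of iMyoD1 no dox, or replicate 2 or 3 of iMyoD1 dox, and to 1 without replicate 2 of iMcam no dox or replicate 1 of iMcam dox. That for iMcam against iCdh23 fell to 1 without replicate 3 of iCdh23 dox.

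Each count is a sum over annotated transcripts, among which the counting program divides shared reads by a model. For Cd9, Cd63 and Tspan3 a single transcript held at least 98.8% of the count in every library, and Tspan9-203 held 79.4% to 99.6% of Tspan9, with at most 14.0% on Tspan9-201. The count of Cd151 was divided between Cd151-203, Cd151-202 and Cd151-201, with medians of 56.6%, 28.6% and 13.7%, and that of Cd82 between Cd82-201 and Cd82-202, with medians of 81.7% and 14.9%. Tspan4 was different. Tspan4-201, of 1466 bases, took a median of 73.8% of the count over all libraries. In the whole culture at 120 h it took only 6.32% (range 3.59 to 9.47) without dox and 3.91% (range 0.0 to 8.06) with dox, and nearly all of the rest went to Tspan4-202, of 1281 bases. The fall of Tspan4 from 48 h to 120 h and its lower dox effect at 120 h than at 48 h thus compare groups whose counts lay on different transcripts. Its mean share was lower with dox in the other settings too. At 24 h it went from 80.7% ± 4.12 to 50.3% ± 2.08 (SD, n = 3), at 0 h from 86.3% to 74.5%, at 48 h from 78.2% to 68.8%, in iCdh23 from 83.6% to 49.0% and in iMcam from 90.2% to 73.3%. In the myoblast-enriched fraction it lay between 70.6% and 88.7% without dox and between 60.1% and 72.1% with dox. In the myotube-enriched fraction it lay between 67.7% and 91.5% without dox and between 24.4% and 74.2% with dox. In both fractions, as in the whole culture, these ranges overlapped. No test was made of these shares. In the same whole cultures at 120 h, Cd81-204 took 9.80% and 10.8% of Cd81, and at most 0.535% in any other library. Replicate 1 of the dox-treated myotube-enriched fraction again stood apart, with 9.26% of Cd151 on Cd151-203 and 14.0% of Cd82 on Cd82-201, against medians of 56.6% and 81.7%. Tspan4 overlaps the opposite-strand gene Chid1 over 292 bp, and Chid1 stayed between 31.7 and 73.6 CPM over all libraries. Whether counting used strand is not given in the sources used here.

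**Figure D5:**
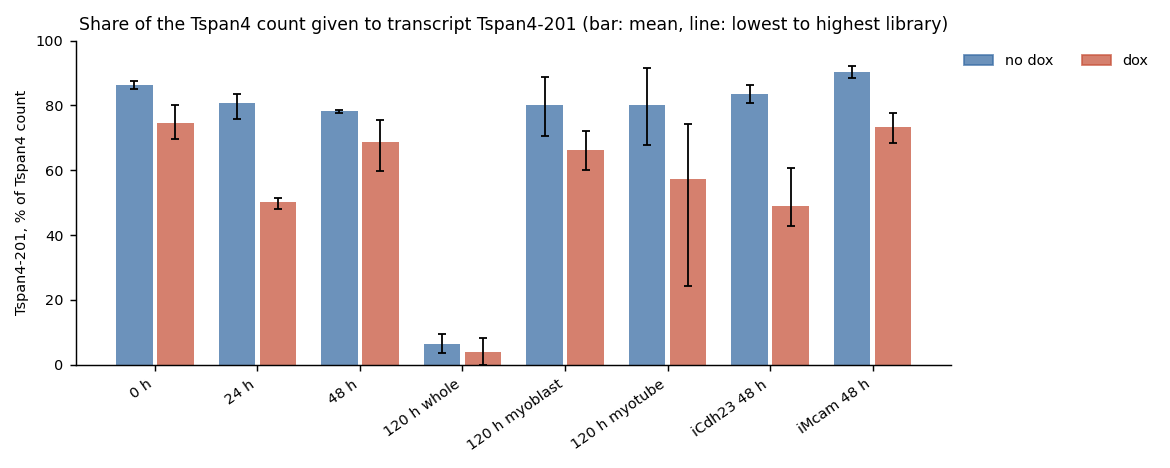
Share of the Tspan4 count given to Tspan4-201 (y axis, percent, from 0) in the 16 groups (x axis), as the mean (bar) and the lowest to highest library (line). Whole cultures at 120 h lie below 10%, and each dox bar is lower than its no dox bar, with overlapping lines in the whole culture and both fractions at 120 h.

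A list of 19 partner genes of these proteins held integrins, immunoglobulin proteins, proteases and ligands. Of the 18 or 19 tested, 4 were higher and 3 lower with dox at 0 h, 9 and 3 at 24 h, 6 and 5 at 48 h, 1 and 8 in the whole culture at 120 h, 2 and 11 in iCdh23 and 4 and 6 in iMcam. In the myoblast-enriched fraction 1 was lower, and in the myotube-enriched fraction none passed. These counts are under TMM. Under library totals they were 8 and 3 at 0 h, 14 and 1 at 24 h, 7 and 4 at 48 h, 5 and 6 in the whole culture at 120 h, 8 and 6 in iCdh23 and 8 and 6 in iMcam. Over all genes under TMM, the shares higher and lower were 19.1% and 18.7% at 0 h, 31.1% and 31.7% at 24 h, 27.9% and 28.7% at 48 h, 21.4% and 23.7% in the whole culture at 120 h, 31.3% and 32.4% in iCdh23 and 24.2% and 24.8% in iMcam. Under library totals those shares were 50.5% and 16.5% at 24 h, 38.4% and 21.2% at 48 h, 47.3% and 22.1% in iCdh23 and 36.6% and 17.4% in iMcam. On that scale 30.7% of the 13550 genes were higher and 1496 genes lower at 0 h, and 33.1% of the 13627 genes higher and 2176 genes lower in the whole culture at 120 h. In the myoblast-enriched fraction 1.82% of all genes were higher and 2.52% lower under TMM, and 3.06% and 2.07% under library totals. The majority of lower partners in iCdh23 and iMcam thus turned with the scaling. Itga7, the laminin receptor of muscle that binds CD151, had a mean of 1167 ± 338 CPM without dox and 320 ± 37.2 CPM with dox at 120 h, and 876 ± 198 and 104 ± 12.4 CPM in iCdh23 (n = 3 each). Itga3 moved the other way in the whole culture at 120 h, from 24.0 ± 7.30 to 55.2 ± 8.95 CPM with dox. It was also higher with dox at 24 h (53.4 ± 1.89 to 131 ± 3.92 CPM) and at 48 h (73.2 ± 3.22 to 199 ± 12.4 CPM). Itga6 was lower with dox at 48 h (74.3 ± 6.23 to 24.9 ± 3.20 CPM) after having been higher at 24 h. Timp1, the CD63 ligand, was lower with dox at 0 h (114 ± 5.38 to 66.4 ± 4.74 CPM) and in iCdh23. Hbegf, a growth factor precursor whose activity CD9 enhances, was lower with dox at 48 h, from 35.3 ± 2.06 to 11.1 ± 0.557 CPM. Over time without dox, 13 partners fell and 3 rose from 0 h to 24 h, 11 rose and 6 fell to 48 h, and 7 rose and 5 fell to 120 h, with the same counts under library totals. Over all genes 37.3% rose and 37.0% fell, then 38.4% each way, and then 33.0% and 34.1%. Under library totals these shares were 30.0% and 42.9%, 34.9% and 42.4%, and 30.2% and 36.6%. Of the immunoglobulin partners, Igsf8 was lower at 120 h than at 48 h without dox (72.4 ± 2.58 to 21.7 ± 6.87 CPM). With dox, Ptgfrn went from 176 ± 1.98 CPM at 24 h to 637 ± 69.8 CPM at 48 h, and Igsf3 from 27.9 ± 1.01 to 201 ± 8.95 CPM. Without dox Igsf3 rose as well over this step, from 13.9 ± 0.881 to 141 ± 6.58 CPM. Time and batch cannot be told apart between 24 h and 48 h.

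Of 23 further tetraspanins, 15 reached a group mean of 5 CPM and 8 did not. With dox 7 were higher and 2 lower of the 15 tested at 0 h, 8 and 1 of 12 at 24 h, 7 and 4 of 15 at 48 h, 4 and 3 of 15 in the whole culture at 120 h, 7 and 5 of 16 in iCdh23 and 4 and 5 of 15 in iMcam. In the myoblast-enriched fraction 1 was higher and 1 lower of 16, and in the myotube-enriched fraction none of 17 passed. Under library totals the counts higher and lower were 10 and 2 at 0 h, 9 and 0 at 24 h, 8 and 4 at 48 h, 6 and 1 in the whole culture at 120 h, 10 and 4 in iCdh23, 5 and 4 in iMcam and 1 and 0 in the myoblast-enriched fraction, so the direction of the majority turned in iMcam. The shares of all genes on either scale are those given for the partners, and under library totals more genes of any kind were higher than lower in each of these comparisons. Tspan15, which carries the protease ADAM10 to the cell surface, was higher with dox at 0 h (41.2 to 57.3 CPM), 24 h (48.6 to 67.7), 48 h (38.4 to 79.1), in the myoblast-enriched fraction (45.6 to 75.9), in iCdh23 (48.4 to 111) and in iMcam (32.2 to 66.1). Tspan2 was higher at 0 h (6.91 to 15.6 CPM), at 48 h (2.61 to 6.15 CPM) and in the whole culture at 120 h (0.607 to 7.14 CPM). The same held in iCdh23 (3.26 to 29.9 CPM) and in iMcam (4.03 to 11.7 CPM). Over time without dox, 11 of 14 fell from 0 h to 24 h and 1 rose, 13 of 16 rose from 24 h to 48 h and 1 fell, and 8 of 17 rose and 6 fell from 48 h to 120 h. Under library totals 12 fell and 0 rose, then 13 rose and 1 fell, and then 8 rose and 7 fell.

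Across the 16 group means, members fell into a set that went with Myog and a set that did not. The Pearson correlation of log2 CPM with Myog was 0.885 for Cd82, 0.876 for Cd63, 0.841 for Cd81, 0.793 for Tspan9 and 0.782 for Tspan3, and 0.314, -0.125 and -0.368 for Cd9, Tspan4 and Cd151. Among members, Tspan3 and Tspan9 were most alike by Pearson r (0.955, with a Spearman rho of 0.559), and Cd151 and Tspan4, neighbours on the chromosome, had an r of 0.881 (rho 0.835). Cd9 and Cd81 had an r of 0.567. Of the 10888 genes compared by Pearson r over the 16 groups, the 3 most alike were B3gnt9, Htra3 and Nsg1 for Cd9 (r 0.944 to 0.969) and Ccnd3, Abhd1 and Dgkz for Cd81 (0.953 to 0.969). They were Snx17, Fbxo17 and G0s2 for Cd63 (0.936 to 0.956) and Fgfr4, Sox8 and Camk1g for Cd82 (0.956 to 0.964). For Cd151 they were Vat1, Aqp5 and Tspan4 (0.881 to 0.887), for Tspan3 St3gal5, Ucp2 and Tspan9 (0.955 to 0.970) and for Tspan4 Arpc1b, Fkbp10 and Zfp503 (0.942 to 0.946). The points share tables, lines and control groups, so these are descriptions and carry no test.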

How the data were processed

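PolyA RNA of C2C12 lines was sequenced. The authors aligned and quantified reads with nf-core/rnaseq and salmon against mm10 (per the submitters' processing notes) and deposited estimated counts per transcript in 3 tables of 109617 transcripts, of which 31.0% to 34.4% of values were not whole. The annotation release is not given in the sources used here, and 98.7% of transcripts were found in the GRCm38 annotation used for names and lengths. No replicates were pooled by the authors, and 0 columns lacked a sample.

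Expected counts were summed per gene and rounded. Genes were filtered with filterByExpr, scaled by TMM and compared with edgeR's quasi-likelihood test (edgeR 4.0.16, R 4.3.3) between the groups of a comparison (17 comparisons), or as a difference of dox effects over 4 groups (6 comparisons). Benjamini-Hochberg adjustment was over all genes tested, and a gene passed at an adjusted p under 0.05. SE is the log2 fold change divided by the square root of F, and intervals are ± 1.96 SE by a normal approximation. CPM used TMM factors over all 47 libraries, and TPM was computed from annotated transcript lengths. No 2 replicates were copies: chi-square per gene was at least 2.95 over 46 pairs. The code was tested on simulated data.

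Members and lists were chosen with earlier results of these data known. All 8 members were named in every comparison. Of the other tetraspanins and partners, at most 3 per list and comparison were named, by the size of the log2 change among those passing with a mean of at least 5 CPM in the higher group and no overlap between groups, and the 3 genes most alike to each member by Pearson r, which for Tspan9 are not reported here. Transcripts were named at 10% or more of a gene's count in a group mean. Same-numbered libraries were taken as paired where all 3 pairs of deviations from group means correlated above 0.1. This held for iMcam between dox and no dox (r 0.291 to 0.464), for both fractions of untreated cells (0.163 to 0.475) and for untreated iMcam against untreated iCdh23 (0.117 to 0.532), from the data and not from the labels. The myoblast-enriched fraction between dox and no dox had only 2 pairs, at r 0.342 to 0.496. It was not taken as paired because the check asks for 3. The alternatives were DESeq2 1.42.0, RLE scaling, no low-count filter, all groups in 1 fit, a replicate block, length-scaled counts, protein-coding transcripts alone, an added fold threshold and single libraries left out. Scaling by library totals without TMM was added after seeing the data. Promoter sequence was from RefSeq (GRCm38.p6).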

Additional observations from a re-analysis of the deposited data

Results flagged for a closer look

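All results here are differences between the dox effects of 2 settings that passed the test of the difference itself (edgeR quasi-likelihood, adjusted p under 0.05 over all genes), given as the first minus the second in log2 ± SE.

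Between 24 h and 0 h, Cd81 differed by 0.32 ± 0.07, Cd82 by 0.31 ± 0.08 and Cd63 by -0.26 ± 0.08.

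Between the whole culture at 120 h and 48 h, Tspan4 differed by -1.55 ± 0.18, Cd63 by -0.88 ± 0.13, Cd151 by -0.62 ± 0.11, Cd82 by -0.50 ± 0.16 and Cd81 by -0.39 ± 0.13. Tspan4 and Cd151 changed direction between these times, from log2 changes of 0.70 and 0.29 to -0.86 and -0.33, although the 120 h call for Cd151 was lost under library totals (-0.12) and under the replicate block, and the count of Tspan4 lay mostly on another transcript at 120 h.

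Between iMcam and iCdh23, Cd9 differed by 0.70 ± 0.14 and Cd63 by 0.52 ± 0.12.

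Between iCdh23 and iMyoD1 at 48 h, Cd63 differed by -1.12 ± 0.14, Cd82 by -0.9999 ± 0.13, Tspan4 by -0.98 ± 0.29, Cd9 by -0.97 ± 0.13, Cd151 by -0.58 ± 0.13 and Tspan9 by -0.51 ± 0.11. Between iMcam and iMyoD1 at 48 h, Cd63 differed by -0.60 ± 0.14 and Cd82 by -0.58 ± 0.15. The last 2 comparisons share the iMyoD1 libraries. No group had more than 3 libraries, so single outlying samples were not tested.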

How the results depend on the processing

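Of the calls that passed, 87 of 92 kept their side of the threshold and their direction with the replicate block, 89 of 92 under DESeq2, 91 of 92 under RLE, 61 of 74 with all groups in 1 fit and 78 of 92 under library totals. The causes were not tested. The 13 calls lost with all groups in 1 fit were Cd9, Cd63, Cd82, Tspan3, Tspan4 and Tspan9 at 0 h, Cd81 at 48 h, Tspan3 in the whole culture at 120 h, Cd63 from 0 to 24 h and Cd151 and Tspan4 from 24 to 48 h without dox, and Tspan3 and Tspan9 from 48 to 120 h with dox. DESeq2 lost 3, namely Tspan3 in the whole culture at 120 h and Cd151 from 24 to 48 h and from 48 to 120 h without dox, and RLE lost Cd151 from 24 to 48 h. Length-scaled counts lost Cd151 there and in iCdh23. Protein-coding transcripts alone lost 4, the DESeq2 calls and Cd151 in iCdh23, and no low-count filter lost 3, Tspan3 at 120 h and Cd151 in iCdh23 and from 48 to 120 h without dox.

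With a fold over 2 also required, no member passed for dox at 0 h, 24 h, 48 h, 120 h whole culture or iMcam (0 each), nor from 48 to 120 h without dox (0), and 2 passed in iCdh23, 2 from 0 to 24 h without dox, 2 with dox and 3 from 48 to 120 h with dox. From 24 to 48 h, 6 passed in either series. Over all genes, 4.27% passed for dox at 0 h, 30.0% in iCdh23 and 30.4% from 24 to 48 h without dox. From 0 to 24 h without dox, 1293 of 13632 genes passed as higher and 2271 as lower. With dox these numbers were 724 and 1621 of 13943, then 2537 and 1767 of 14953 to 48 h and 2136 and 3016 of 14166 to 120 h. For dox they were 1130 and 723 of 14078 at 24 h, 823 and 1174 of 13871 at 48 h and 997 and 1199 of 13627 at 120 h. They were 960 and 1352 of 13731 in iMcam and 1614 and 2495 of 13785 from 48 to 120 h without dox. Of the differences in dox effect, 0 passed for 24 h minus 0 h, 1 for 120 h minus 48 h, 0 for iMcam minus iCdh23, 1 for iCdh23 minus iMyoD1 and 0 for iMcam minus iMyoD1. Over all genes 1058 passed as higher and 867 as lower of 14734 for 120 h minus 48 h. For iCdh23 minus iMyoD1 they were 627 and 1794 of 14825. With all groups in 1 fit, 1 member passed for dox at 0 h, where 4.95% of 16749 genes did, and 2 between fractions without dox. DESeq2 called 2 between these fractions, with 5.15% of 14822 genes, and 4 for iMcam minus iCdh23. For the latter edgeR called 2 of the 8 and 10.6% of genes, and the DESeq2 share of all genes is not reported here.

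Under library totals, 5 passed for dox at 48 h, where 38.4% of genes were higher and 21.2% lower. In the whole culture at 120 h 3 passed, where 33.1% of 13627 genes were higher and 2176 genes lower. On that scale 5 passed for 24 h minus 0 h and 1 for iMcam minus iCdh23. Under TMM 34.1% and 10.6% of genes differed there, and the shares under library totals are not reported here. Log2 changes that turned sign were, for dox at 24 h, Cd9 0.20 and Cd151 0.0276; at 48 h, Cd82 0.12; in the whole culture at 120 h, Cd9 0.0748 and Tspan9 0.18; in iCdh23, Cd151 0.0257 and Tspan4 0.027; in iMcam, Cd9 0.0059 and Cd81 0.17. They were also Tspan3 -0.0403 from 48 to 120 h without dox, Cd63 -0.14 and Tspan4 -0.10 between fractions with dox, Tspan4 0.19 and Tspan9 0.17 for 24 h minus 0 h, Cd9 -0.0426, Cd81 -0.0151 and Tspan9 -0.11 for the dox effect between fractions, Tspan3 -0.0757 for iMcam minus iCdh23 and Cd81 0.032 for iCdh23 minus iMyoD1. Only the Cd151 values were of calls that had passed. Over all genes, calls higher and lower went from 2592 and 2530 to 4159 and 1496 at 0 h, from 3865 and 3980 to 5328 and 2940 at 48 h, from 2922 and 3232 to 4506 and 2176 in the whole culture at 120 h, from 260 and 359 to 436 and 295 in the myoblast-enriched fraction and from 3320 and 3402 to 5023 and 2390 in iMcam.

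With the replicate block, 2 members passed between fractions without dox. Tspan9 passed in iMcam, and the block changed no other call where libraries were paired. Elsewhere the numbers did not pair the samples by the check above, and the block lost the calls of Cd151 (adjusted p = 0.0645) and Tspan3 (adjusted p = 0.143) in the whole culture at 120 h, of Cd151 from 24 to 48 h and from 48 to 120 h without dox and of Cd81 for 120 h minus 48 h, and gained Cd9 for 24 h minus 0 h (edgeR). Signs turned for Cd63 at 48 h (-0.0011), for Cd63 (-0.24), Tspan3 (0.17) and Tspan4 (-0.19) between fractions with dox and for Tspan9 (-0.0443) in the dox effect between fractions, none of which had passed.

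Other values that had not passed turned sign too. Under DESeq2 and RLE these were Tspan4 (0.0398 and 0.0421) and Tspan9 (0.0188 and 0.0214) for 24 h minus 0 h and Cd151 (0.0068 and 0.0115) for the dox effect between fractions. With all groups in 1 fit they were Cd151 in iMcam (-0.0021) and Tspan3 from 48 to 120 h without dox (-0.0116). With length-scaled counts they were Cd82 at 48 h (0.0299), Tspan9 in the myoblast-enriched (-0.0437) and myotube-enriched (-0.0961) fractions and Cd81 from 48 to 120 h without dox (0.076). Without the low-count filter they were Cd81 from 0 to 24 h with dox (0.0072), Tspan4 for 24 h minus 0 h (0.0091) and Cd151 for the dox effect between fractions (0.0007). With protein-coding transcripts alone they were Tspan9 in the whole culture at 120 h (0.0132) and Tspan3 between fractions with dox (0.0092).

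Leaving out single libraries, 3 to 5 members passed from 48 to 120 h without dox, 3 to 6 for 120 h minus 48 h, 1 to 3 for iMcam minus iCdh23 and 0 to 3 for iMcam minus iMyoD1. For dox, 6 to 7 passed at 0 h, 3 to 4 at 48 h, 4 to 6 in the whole culture at 120 h and 5 to 6 in iCdh23. From 24 to 48 h without dox and from 48 to 120 h with dox, 6 to 8 passed. For 24 h minus 0 h the count was 3 to 4. Where 1 library then stood for the dox-treated myoblast-enriched fraction, it was assumed to vary like the other group. Values that had not passed and turned sign in at least 1 such fit had these log2 ranges. For dox at 48 h they were -0.0904 to 0.1064 for Cd63 and -0.0986 to 0.0308 for Cd82. In the whole culture at 120 h they were -0.1436 to 0.0695 for Tspan9. For dox in the myoblast-enriched fraction they were -0.3117 to 0.0471 for Cd63, -0.5436 to 0.0051 for Tspan4 and -0.0355 to 0.1306 for Tspan9. For dox in the myotube-enriched fraction they were -0.3346 to 0.0282 for Cd9, -0.3802 to 0.0397 for Cd81, -0.0365 to 0.2053 for Cd82, -0.0448 to 0.1891 for Cd151 and -0.0708 to 0.1572 for Tspan9. In iCdh23 they were -0.0038 to 0.161 for Tspan3. In iMcam they were -0.077 to 0.0484 for Cd81, -0.0564 to 0.0793 for Cd151 and -0.1761 to 0.2218 for Tspan4. From 48 to 120 h without dox they were -0.1652 to 0.0359 for Tspan9. From 0 to 24 h with dox they were -0.0491 to 0.012 for Cd81. Between fractions with dox they were -0.022 to 0.426 for Cd81, -0.2405 to 0.2795 for Cd63, -0.1896 to 0.0227 for Cd151, -0.3378 to 0.1964 for Tspan3 and -0.2164 to 0.3785 for Tspan4. For iMcam against iCdh23 without dox they were -0.1794 to 0.0157 for Tspan9. For 24 h minus 0 h they were -0.0895 to 0.0842 for Tspan4 and -0.0747 to 0.0187 for Tspan9. For the dox effect between fractions they were -0.1711 to 0.1825 for Cd9, -0.1743 to 0.2581 for Cd81, -0.1129 to 0.1068 for Cd151 and -0.125 to 0.1279 for Tspan9. For iMcam minus iCdh23 they were -0.0234 to 0.1257 for Tspan3.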
